A study of Mus musculus with 12 samples.

Results

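Replication forks were read here in 200 kb windows of the mouse genome in which most forks moved in the same direction in epiblast-like cells (EpiLCs). The windows were chosen by the strand share of the OK-seq reads of the 3 EpiLC libraries summed. In each fixed autosomal window with at least 1000 such reads, the Crick percent is the share of reads on the Crick strand, and a window was selected on a value of 60 or more, taken as mostly rightward forks, or of 40 or less, taken as mostly leftward forks. Of 12325 autosomal windows, 11775 had enough reads and 3605 were kept, 1811 rightward and 1794 leftward. They are called unidirectional windows below, and they made up 30.6% of the windows with enough reads.

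OK-seq sequences Okazaki fragments, the short pieces of the lagging strand, after a short pulse of EdU, a thymidine analog. The lagging strand lies on opposite DNA strands for forks that move right and forks that move left. The strand share of the reads is therefore taken as the share of forks moving each way. Base composition also moved with it, as given below. Forks leave origins in both directions and meet the next fork at a termination site. A window passed mostly in the same direction therefore lies between a place where forks start and a place where they meet, whereas at an origin zone the share shifts steeply from leftward to rightward forks. In mouse cells efficient origin zones are known to lie near active, CpG-rich promoters, and termination is known to be spread over broad regions.

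The cells were naive mouse embryonic stem cells (ESCs), grown in LIF with 2i, and EpiLCs, the formative state made from them by withdrawing LIF and 2i. KMT2C and KMT2D are methyltransferases that place H3K4me1 at enhancers. The control was a KMT2C knockout line, the double knockout (KMT2C/D dKO) lacked KMT2D as well, after 4-hydroxytamoxifen was given to cells with a conditional Kmt2d allele and CreER, and the double catalytic-dead line (KMT2C/D dCD) carried both enzymes without catalytic activity. The dCD cells came from another parental line and strain background than the control and dKO cells, so that genotype and parental line cannot be told apart for dCD. No wild-type library was part of the comparison. Each of the 6 conditions was given as 1 library in which 2 biological replicates are summed, with 3655095 to 4409068 reads in naive ESCs and 11407678 to 13601460 in EpiLCs. Bins of 1 kb do not show the lost exons or the catalytic change, so the genotype labels were not checked. The spread between replicates is unknown and no test between genotypes within a state was possible. The states pair by genotype, but no test was made between them, since the EpiLC reads chose the windows. The 95% intervals given are Wilson intervals for shares and Newcombe intervals for differences. They cover counting error only, since each condition is 1 pooled library. PCR copies of the same fragment cannot be recognised without molecular identifiers, and any left in make the intervals too narrow.

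The 2 longest stretches of adjacent unidirectional windows, 1200 kb each, show what such a region looks like. One ran rightward on chromosome 6, at chr6:72800001-74000000 (mm10), over Suclg1, a citric acid cycle enzyme, and over Kcmf1, a ubiquitin ligase, and Dnah6, a dynein heavy chain, both read from the minus strand. The other ran leftward on chromosome 1, at chr1:32600001-33800000, over Khdrbs2, an RNA-binding protein, Prim2, the large subunit of DNA primase, and Zfp451, a SUMO ligase. At the end that the forks came from, the nearest protein-coding gene start was that of Tcf7l1, a repressor of Wnt target genes, 10 kb outside the first stretch, and that of Zfp451, 14 kb outside the second. The promoters of these 2 genes, and that of Pnpla7, a lysophospholipase, whose start lay 23 kb inside the leftward run at chr2:24000001-25000000, are shown since they mark the side where the forks entered. They are RefSeq promoters on GRCm38.p6, 250 bases before to 50 after the RefSeq start, written 5′ to 3′ on the strand of the gene, with each CG dinucleotide in capitals. They span chr6:72788996-72789295 (minus strand), chr1:33814546-33814845 (minus strand) and chr2:24975783-24976082 (plus strand).
Tcf7l1: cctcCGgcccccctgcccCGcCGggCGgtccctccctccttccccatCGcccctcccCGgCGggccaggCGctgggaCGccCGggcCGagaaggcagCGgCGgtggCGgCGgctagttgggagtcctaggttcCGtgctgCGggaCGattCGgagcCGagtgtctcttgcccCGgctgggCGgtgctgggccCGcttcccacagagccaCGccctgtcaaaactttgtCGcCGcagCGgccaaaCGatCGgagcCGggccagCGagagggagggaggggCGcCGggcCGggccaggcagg
Zfp451: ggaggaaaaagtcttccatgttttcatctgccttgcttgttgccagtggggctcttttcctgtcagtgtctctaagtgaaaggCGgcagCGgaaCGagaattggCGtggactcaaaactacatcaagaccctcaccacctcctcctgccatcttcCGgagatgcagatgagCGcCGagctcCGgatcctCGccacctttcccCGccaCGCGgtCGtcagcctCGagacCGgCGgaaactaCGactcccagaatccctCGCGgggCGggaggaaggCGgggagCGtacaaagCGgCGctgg
Pnpla7: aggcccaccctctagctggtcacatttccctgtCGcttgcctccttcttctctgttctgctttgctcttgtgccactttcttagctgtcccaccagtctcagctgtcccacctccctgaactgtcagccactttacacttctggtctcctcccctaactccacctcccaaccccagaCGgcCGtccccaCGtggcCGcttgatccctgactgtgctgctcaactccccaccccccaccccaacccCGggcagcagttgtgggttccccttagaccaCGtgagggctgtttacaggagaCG

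The Tcf7l1 promoter held 34 CG dinucleotides, the Zfp451 promoter 24 and the Pnpla7 promoter 8. CG reads the same on both strands. Over 31396 RefSeq promoters of the same length the median was 7, and as many or more were found in 7.98%, 20.5% and 49.0% of them. The RefSeq start of Tcf7l1 differed by 209 bases from the GENCODE start used for distances, and those of the other 2 genes were the same. Of the stretches of 1000 kb described below, the other 3 began near Dars, an aspartyl-tRNA synthetase (14 CG dinucleotides), Stam2, an endosomal sorting adaptor (35), and Spsb2, an adaptor of a ubiquitin ligase (20). No origin was mapped at these promoters, and distances to other promoters were not compared.

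The direction of the forks was measured again in the 3 naive libraries, whose reads did not choose the windows. Fork direction is given as the percent of reads on the strand of the EpiLC fork direction, so 50 means equal reads on both strands. Over the reads of all 3605 windows it was 65.2% (95% interval 65.1 to 65.3) in the naive control, 66.8% (66.7 to 66.9) in dKO and 71.1% (71.0 to 71.2) in dCD. In EpiLCs, where these reads chose the windows, it was 62.8%, 64.2% and 66.7%. Thus the windows kept their direction in the naive state, where the dCD library stood highest.

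**Figure D1:**
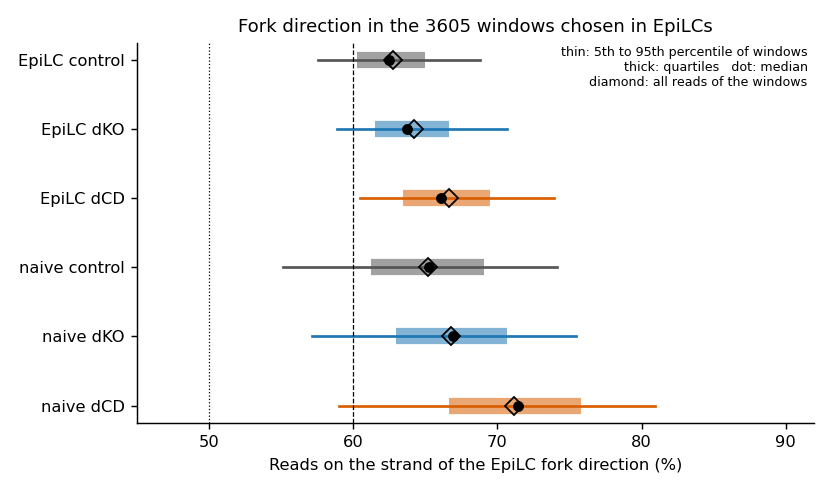
Percent of reads on the strand of the EpiLC fork direction (x axis) in the 3605 unidirectional windows, for each of the 6 libraries (y axis). Thin lines span the 5th to the 95th percentile of windows, thick bars the quartiles, dots the median window and diamonds all reads together, with the dotted line at 50 and the dashed line at 60. The naive dCD library sits farthest to the right, with a median of 71.4%, and the EpiLC libraries are shown as a description since they chose the windows.

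Single windows varied more in the naive libraries, which had a median of 313 to 372 reads per window. The spread in EpiLCs was in part cut by the choice of windows, so the states are not alike in this. The 5th percentile, the median and the 95th percentile over windows were 55.1%, 65.2% and 74.2% in the naive control. The same values were 57.1%, 66.9% and 75.4% in naive dKO. In naive dCD they were 59.0%, 71.4% and 80.9%. For the naive control, the median distance from a window's value to the edge of its interval was 4.78 percentage points and the SD over windows was 5.74 percentage points. In 22, 13 and 10 windows of the control, dKO and dCD library the majority of reads lay on the other strand. All 3 naive libraries lay on the EpiLC side of 50 in 3565 of the 3605 windows, and all 3 on the other side in 1 window.

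The thresholds used in EpiLCs were then applied to each naive library. Of the 1811 rightward windows, 80.8% reached a Crick percent of 60 in the naive control, against 18.4% of all windows. The share was 87.7% in dKO, with 20.7% of all windows, and 93.4% in dCD, with 26.2%. Of the 1794 leftward windows, 81.7% were at 40 or below in the naive control (18.6% of all windows), 88.3% in dKO (21.2%) and 93.6% in dCD (26.3%). All 3 naive libraries passed together in 74.8% of the rightward windows, against 14.3% of all windows, and in 76.0% of the leftward windows, against 14.7%. These add to 2719 of 3605 windows, or 75.4%. With the naive reads summed, the interval lay wholly above 60 in 2846 windows, across 60 in 652 and wholly below it in 107.

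The stronger the direction in EpiLCs, the stronger it was in naive cells. Windows with 60 to 65% of EpiLC reads on the majority strand had 62.6% of naive control reads on that strand, 64.2% in dKO and 68.0% in dCD. In those with 65 to 70% the values were 67.9%, 69.5% and 74.5%. The 289 windows at 70% or more had 73.2%, 74.8% and 80.3%. Among windows outside the thresholds, those with 50 to 55% in EpiLCs had 52.5%, 52.8% and 53.6%, and those with 55 to 60% had 57.3%, 58.3% and 60.6%.

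**Figure D2:**
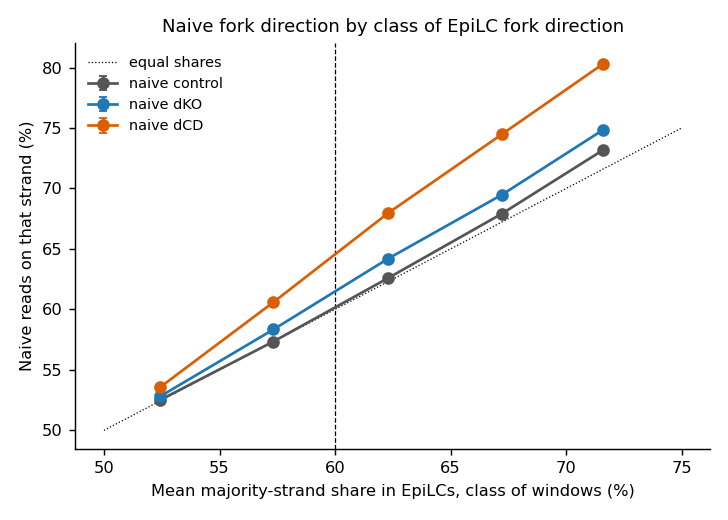
Mean share of reads on the majority strand in EpiLCs (x axis, percent) against the percent of naive reads on the same strand (y axis), for 5 classes of windows and the 3 naive libraries. Bars are 95% Wilson intervals for counting error, the dotted line marks equal shares and the dashed line the threshold of 60. The dCD line lies above the others, from 53.6% in the weakest class to 80.3% in the strongest. The shares are not corrected for base composition.

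Between genotypes, naive dKO minus naive control was 1.63 percentage points (1.51 to 1.75) and naive dCD minus naive control 5.95 (5.83 to 6.06). Naive dCD minus naive dKO was 4.32 percentage points (4.20 to 4.44). dKO was above the control in 65.2% of windows and dCD in 88.6%. On each of the 19 autosomes both differences had an interval above 0, from 0.850 to 2.09 percentage points for dKO and from 5.34 to 6.98 for dCD. Rightward and leftward windows gave 1.67 and 1.58 for dKO and 6.06 and 5.83 for dCD. Each comparison is of single pooled libraries, and both share the control library. In EpiLCs, whose reads made the choice, the differences from the control were 1.48 for dKO and 3.90 for dCD.

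The same order was found over the whole genome. The amplitude of fork direction, the SD of the Crick percent over all 11775 windows with the counting variance taken off, was 10.4 percentage points in the naive control, 11.4 in dKO and 14.4 in dCD. The excess over 50 in the unidirectional windows was 1.45, 1.48 and 1.46 times this amplitude. In EpiLCs the amplitude was 8.27, 9.16 and 10.7, and the excess 1.54, 1.55 and 1.55 times as large. This ratio differed little between genotypes. The unidirectional windows are themselves 30.6% of the windows behind the amplitude and hold the strongest EpiLC values. A near-equal ratio was thus partly fixed in advance, and nothing about these windows is concluded from it.

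Fork direction was higher in the naive than in the EpiLC library of the same genotype. The difference was 2.42 percentage points (2.32 to 2.51) in the control, 2.56 (2.47 to 2.66) in dKO and 4.47 (4.37 to 4.56) in dCD. The naive library was higher on 19 of 19 autosomes for each genotype, but autosomes of the same library are not repeats. As the EpiLC reads chose the windows, these differences are a description, and their intervals do not cover that choice. Base composition moved with fork direction. In every library the Crick share of a 1 kb bin rose with its T minus A content, the excess of T over A on the reference strand, with a slope of 1.21 to 1.42 in EpiLC and 1.71 to 1.84 in naive libraries, as the rise of the Crick share over a rise of 1 in the T minus A share of bases. Along the forks, T minus A content was 2.24% of bases in the unidirectional windows and 1.16% in all windows. After the fitted part was taken off, fork direction at these windows was 60.2%, 61.9% and 65.5% in naive control, dKO and dCD. In EpiLCs it was 59.8%, 60.7% and 63.0%. The naive minus EpiLC differences were then 0.426, 1.203 and 2.53 percentage points. Naive dKO minus control was 1.68 and naive dCD minus control 5.30. In EpiLCs dKO minus control fell from 1.48 to 0.908 and dCD minus control from 3.90 to 3.19.

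A choice free of the measured library was also made in EpiLCs. Windows chosen on dKO and dCD had 62.1% of EpiLC control reads on the strand of the forks, over 3896 windows. Windows chosen without dKO had 63.8% in EpiLC dKO, over 3684 windows, and windows chosen without dCD had 66.8% in EpiLC dCD, over 3164. As the 3 sets of windows differ, with 64.7%, 64.8% and 65.8% in the naive control when the control, dKO and dCD were left out, these values are not compared between genotypes.

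Most stretches were short. Adjacent windows of the same direction were joined into 2230 runs, 1108 rightward and 1122 leftward. Of these, 1316 were a single window of 200 kb, 569 were 400 kb, 249 were 600 kb, 78 were 800 kb, 16 were 1000 kb and 2 were 1200 kb long. Runs of at least 2 windows held 63.5% of the unidirectional windows, and the 345 runs of at least 3 windows held 31.9%. Fork direction in the naive control was 64.4% (64.2 to 64.5) in single windows, 65.5% in runs of 2 windows, 66.1% (65.9 to 66.2) in runs of 3 and 65.6% (65.3 to 65.8) in runs of 4 to 6. In naive dCD these values were 69.5%, 71.5%, 72.8% and 72.6%. Bases inside protein-coding genes took 50.1% of single windows, 42.4%, 37.0% and 31.9% of the windows in the longer classes.

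**Figure D3:**
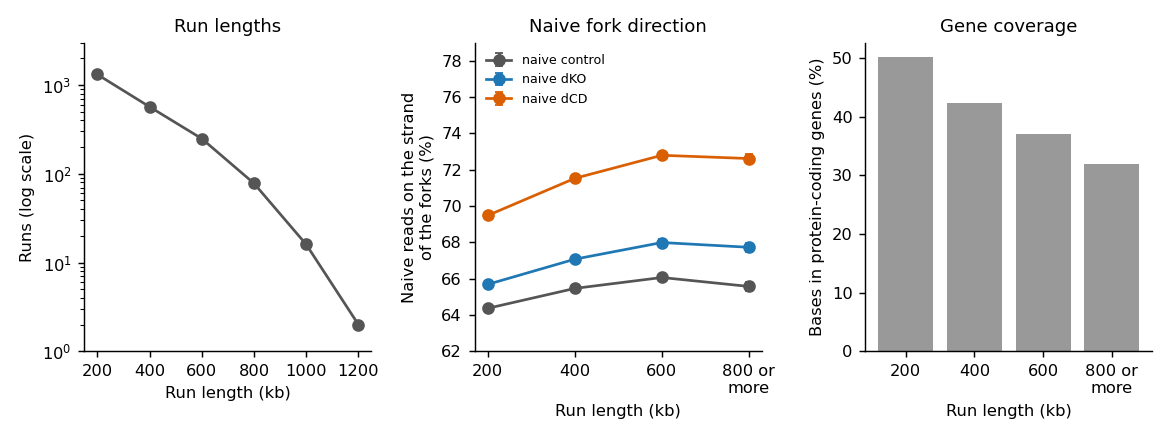
Left, number of runs (log scale) by run length in kb. Middle, percent of naive reads on the strand of the forks by run length, with 95% Wilson intervals for counting error and a y axis that does not start at 0. Right, percent of bases in protein-coding genes. The number of runs falls from 1316 to 2, and gene coverage from 50.1% to 31.9%.

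The 3 longest runs in each direction were looked at singly. As 16 runs shared the length of 1000 kb, those of this length were taken in the order of chromosome and position. Each of the 6 runs had over 60% of reads on the strand of the forks in each naive library. In the run at chr6:72800001-74000000 the naive percent was 65.02 in control, 68.7 in dKO and 74.7 in dCD, on 2121, 1989 and 2049 reads. In the leftward run at chr1:32600001-33800000 it was 65.2, 66.2 and 70.3. The rightward run at chr1:128400001-129400000, over Thsd7b and Dars, had 63.7, 68.7 and 71.6. The rightward run at chr2:52800001-53800000, over Fmnl2, a formin of the actin cytoskeleton, and Arl6ip6, had 64.3, 64.2 and 70.7. The leftward run at chr2:24000001-25000000, over Cacna1b, a neuronal calcium channel, Ehmt1, an H3K9 methyltransferase, and Pnpla7, had 62.6, 67.1 and 71.6. The leftward run at chr6:123800001-124800000, over the vomeronasal receptors Vmn2r24 and Vmn2r27 and the lipid enzyme Lpcat3, had 64.4, 66.9 and 69.97. The dCD library was the highest in each of the 6 runs. Protein-coding genes covered between 14.8% and 56.8% of these runs.

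The sides of a run differed in gene content. In the 400 kb before the 345 runs of at least 3 windows, on the side the forks came from, protein-coding genes covered 57.1% of bases, with 14.6 gene starts per Mb and a GC content of 43.9%. Inside the runs the values were 35.2%, 7.44 per Mb and 41.8%. In the 400 kb after them they were 25.005%, 3.97 per Mb and 39.6%. GC content was higher before than after the run in 329 of 345 runs. More gene starts lay before in 301 runs and after in 30, and more genic bases before in 270 and after in 71. None of these measures entered the choice of windows.

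Fork direction changed steeply at the end of the run that the forks came from and slowly at the end they ran to. In the naive control 44.9% of reads were on the strand of the run's forks at 150 to 100 kb before the run, 53.6% in the last 50 kb before it and 67.4% at 50 to 100 kb inside. At the far end the share was 66.1% at 200 to 150 kb before the end, 60.5% in the last 50 kb and 50.4% at 150 to 200 kb beyond it. In naive dCD the steep side went from 43.2% through 55.4% to 73.3%, and the slow side from 73.5% through 66.7% to 54.4%. Gene starts were densest where the run began, with 18.9 per Mb in the last 50 kb before it and 19.01 per Mb in its first 50 kb, and fell to 3.83 per Mb in its last 50 kb. The window edges were fixed by the EpiLC threshold, so the place of each end is known to 200 kb only.

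**Figure D4:**
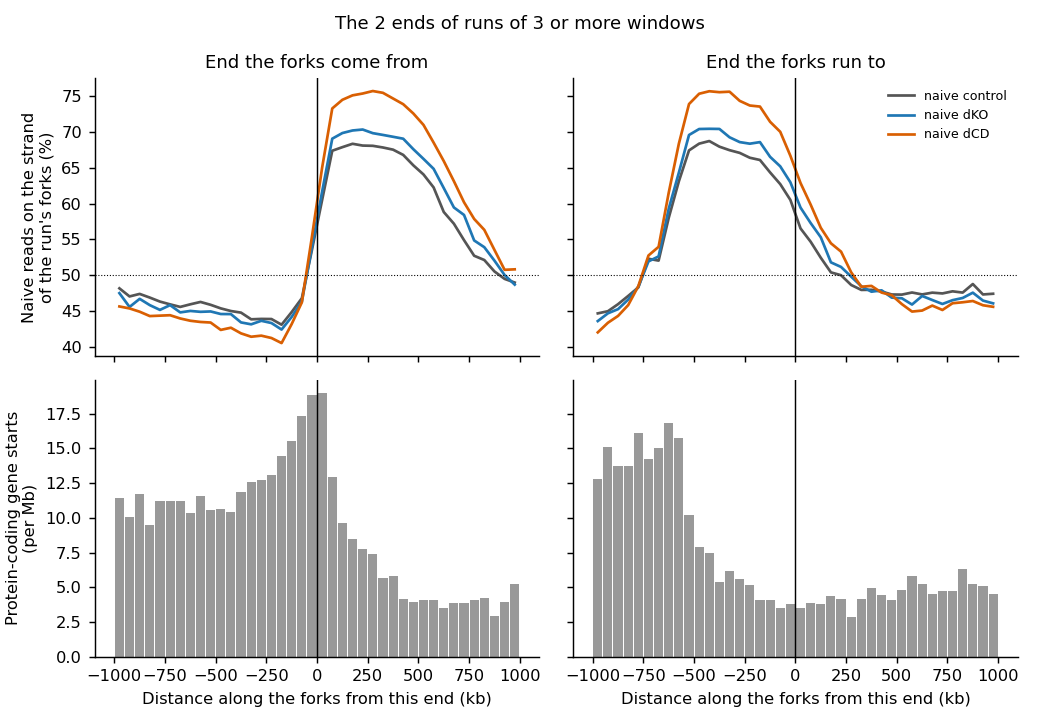
Top, percent of naive reads on the strand of the run's forks (y axis) by distance in kb along the forks (x axis, 50 kb steps) from the end they came from (left) and the end they ran to (right), over the 345 runs of at least 3 windows. Bottom, protein-coding gene starts per Mb at the same distances. The rise at the left end is steep and coincides with the peak of 19.01 gene starts per Mb, and the decline at the right end is gradual.

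Within these runs the inner windows had the strongest direction. In the naive control it was 65.9% (65.7 to 66.2) in the window the forks entered first, 67.5% (67.3 to 67.7) in inner windows and 63.5% (63.2 to 63.7) in the last window. In naive dCD it was 71.9%, 75.02% and 70.5%. A run ends where the next window misses the EpiLC threshold, so weaker end windows follow in part from the rule. Gene starts fell from 12.5 per Mb in the entry window to 6.32 in inner windows and 3.87 in the last window, and GC content from 43.4% to 41.8% and 40.4%.

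The spaces between neighbouring runs differed in the same way. A leftward run followed by a rightward run, so that forks diverged from the space between them, occurred 762 times, with a median space of 200 kb and 141 pairs directly adjacent. A rightward run followed by a leftward run, so that forks converged, occurred 761 times, with a median space of 600 kb and 41 pairs adjacent. Protein-coding genes covered 58.4% of diverging spaces, which had 17.8 gene starts per Mb and a GC content of 44.8%. They covered 28.9% of converging spaces, which had 3.98 gene starts per Mb and a GC content of 39.8%. In the 688 spaces between runs of the same direction the values lay between these, at 45.4%, 8.82 per Mb and 42.3%.

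Taken over all unidirectional windows, gene content was close to that of the genome. Protein-coding genes covered 42.9% of their bases and 41.8% of the bases of all windows, and gene starts numbered 8.80 and 8.59 per Mb. Windows with no protein-coding gene were fewer, at 22.1% against 27.8%. The windows were spread over all autosomes, from 27.6% of windows on chromosome 16 to 37.1% on chromosome 19. With each chromosome split into 5 equal parts from the centromere end, they made up 29.2%, 30.1%, 30.7%, 29.7% and 33.1% of windows. In the last 2 Mb of the chromosomes 60 of 181 windows were unidirectional, and 38.3% of these were rightward.

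Transcription, here and below, means the annotated strand of a gene, since expression was not used. By this measure genes in the windows were more often transcribed in the direction of the forks. The share varied with gene length and with the treatment of base composition. Of the genic bases in the windows, 64.8% belonged to genes transcribed with the forks, against 57.9% over all windows when the majority strand gave the direction. By gene midpoint, genes under 20 kb were transcribed with the forks in 48.8% of 3311 cases (47.1 to 50.5). The share was 59.5% of 2217 genes of 20 to 100 kb, 71.6% of 655 genes of 100 to 300 kb and 70.7% of 157 longer genes. It also rose with the strength of direction, from 61.97% of genic bases in windows of 60 to 65% to 84.8% in those of 70% or more. When windows were chosen after this base composition part had been subtracted, 2342 windows passed, 2251 of them among the 3605, and 51.0% of their genic bases were transcribed with the forks, against 51.4% over all windows. The part of base composition in the co-direction of genes and forks was not tested further.

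In genes of 300 kb or more the direction differed between the parts of the gene. There were 541 such genes, and each window whose centre lay inside one was placed in its 5′ part or its 3′ part, divided at the midpoint. In 5′ parts 280 of 795 windows were unidirectional, and in 262 of these, 93.6% (90.1 to 95.9), the forks moved with transcription. In 3′ parts 209 of 794 windows were unidirectional, and in 61, 29.2% (23.4 to 35.7), the forks moved with transcription. In the naive libraries 65.5% (control), 66.5% (dKO) and 70.3% (dCD) of reads in the 5′ windows were on the strand of forks moving with transcription, and 44.1%, 42.9% and 41.0% in the 3′ windows. The contrast held with the T minus A part off, at 86.4% of 154 windows in 5′ parts and 11.5% of 174 in 3′ parts. The other windows of these genes differed the same way, with the majority of EpiLC reads on the strand of forks moving with transcription in 67.4% of 515 windows in 5′ parts and 44.8% of 585 in 3′ parts. Windows of the same gene, and of genes that overlap, are not independent.

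**Figure D5:**
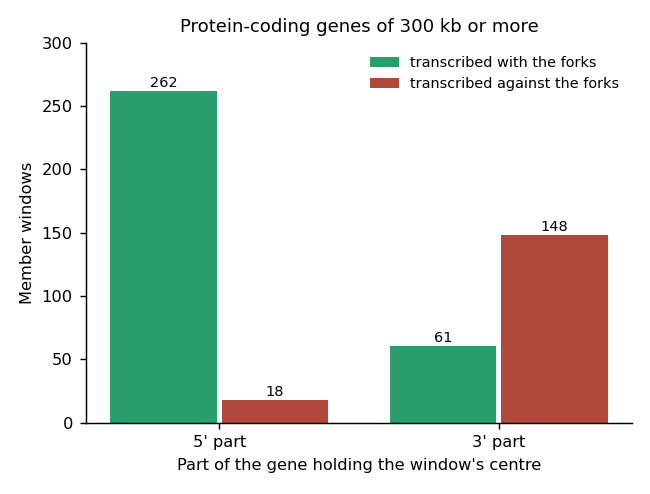
Number of unidirectional windows (y axis) whose centre lay in the 5′ part or the 3′ part (x axis) of protein-coding genes of 300 kb or more. Bars are split by whether the annotated strand of the gene runs with or against the forks. In 5′ parts 262 of 280 windows had forks moving with transcription, in 3′ parts 61 of 209.

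Of the 541 genes, 227 had a unidirectional window with forks along transcription in the 5′ part, 122 had one with forks against transcription in the 3′ part, and 27 had both. The opposite was seen in 17 genes with a window against transcription in the 5′ part and 57 with a window along it in the 3′ part. Some of the 27, such as Pde4d, a phosphodiesterase, held windows of both directions within the same part. Examples without that, all named here after their values were seen, were Dlg2, a scaffold protein of synapses, and Anks1b, a postsynaptic protein. Dlg2 had 3 windows with transcription among the 5 of its 5′ part and 1 window against it among the 5 of its 3′ part. Anks1b had 2 of 3 and 2 of 3 such windows. Some annotated genes of this length are joined transcripts over several genes, such as Gm20388, or reach far beyond the usual gene, such as the 2961 kb annotated for Fgfr2, and were counted as they stand.

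The windows with the strongest EpiLC direction, which chose them, are given as a description, with Crick percents in naive control, dKO and dCD. The highest, at chr6:125600001-125800000, with an EpiLC Crick percent of 76.5, lay in Ano2, a chloride channel, and Vwf, which encodes von Willebrand factor, both on the plus strand. Its naive values were 76.0%, 77.3% and 84.9%. The window at chr4:83600001-83800000 lay wholly within Ccdc171 and had 72.1%, 78.3% and 83.6%. The window at chr19:39000001-39200000, with the cytochrome P450 genes Cyp2c66, Cyp2c55 and Cyp2c65, had 75.1%, 72.7% and 87.2%. The window at chr6:123000001-123200000, with the lectin receptor genes Clec4a2, Clec4a4 and Clec4b2, had 81.8%, 82.1% and 87.1%. In the order named, T minus A content in these windows was 4.72%, 7.37%, 5.65% and 7.72% of bases. Along the forks of all unidirectional windows it was 2.24%. The percents given are not corrected for base composition. All genes named in these windows lie on the plus strand, so the rightward forks moved in their annotated direction. Whether they are expressed in these cells was not looked at.

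On the leftward side, the window at chr19:43200001-43400000, in Hpse2, a heparanase-like gene on the minus strand, had an EpiLC Crick percent of 23.3 and naive values of 25%, 20.9% and 17.3%. The window at chr3:51000001-51200000 held no protein-coding gene and had 30.0%, 24.8% and 14.4%. The window at chr12:58800001-59000000, over Sec23a, a coat protein of secretory vesicles, had 23.4%, 26.2% and 17.7%. In each of these 3 windows dCD was the lowest of the naive libraries, that is, the most strongly leftward. T minus A content in them was -7.67%, -3.80% and -4.64% of bases, and their percents are not corrected for it.

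A further extreme window on each side carried excess reads. The window at chr9:3000001-3200000, the first sequence of chromosome 9, had an EpiLC Crick percent of 75.9 on 8628 reads, against a median of 3266 in unidirectional windows, and 88.7% of 6843 summed naive reads. The window at chr14:19400001-19600000, over Gm2237 and Gm2244, had an EpiLC Crick percent of 17.6 on 6438 reads and 7.42% of 5255 naive reads. The median summed naive count was 1029. Whether these reads map to repeated sequence was not tested, and without all 1 kb bins above 10 times the median count 3602 windows passed the rule and the naive control stood at 65.1%.

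Near the thresholds values were close. The 3 windows just inside 60 had EpiLC Crick percents that round to 60. Their summed naive values were 67.1% in a window without protein-coding genes on chromosome 11, 62.6% over Fat4 on chromosome 3 and 63.8% in a window without protein-coding genes on chromosome 12. The 3 just outside it, over Mipol1, Rnf180 and Fermt1, had 64.8%, 67.3% and 69.1%. On the leftward side the 3 just inside 40, over Clasp1, Dpyd and Pax2, had naive values of 32.2%, 41.1% and 32.8%, and the 3 just outside had 38.9%, 34.4% and 41.3%.

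The windows whose direction was least kept in naive cells were few. At chr5:106800001-107000000, over Hfm1, a meiotic helicase, and Cdc7, the kinase that fires licensed origins, the EpiLC Crick percent was 61.4, and the naive values were 46.0% (41.1 to 51.0) in control, 44.0% in dKO and 43.4% (37.96 to 48.9) in dCD. It was the only window on the other side of 50 in all 3 naive libraries. The window at chr15:92000001-92200000, in Cntn1, a neural adhesion gene, had 46.8%, 48.1% and 51.1%. The window at chr7:65600001-65800000, over Tarsl2 and Tm2d3, had 44.1%, 52.4% and 50.5%. At chr19:59000001-59200000, in Shtn1, the Crick percent was 39.7 in EpiLCs and 45.6, 49.3 and 53.1 in naive cells. The window at chr1:136800001-137000000, in Nr5a2, a nuclear receptor of the naive state, lay in an 800 kb rightward run with 64.5% in EpiLCs and had 49.7% (45.005 to 54.3), 49.7% and 53.3% (48.2 to 58.4) in naive cells.

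Genes of 6 lists were looked up by their midpoint, beside 6340 of 20228 protein-coding genes, or 31.3%, in the windows. Of 15 naive pluripotency factors, 2 lay in unidirectional windows, Nr5a2 and Klf4, both transcribed against the forks. At Klf4, a reprogramming factor, fork direction was 64.4% in EpiLCs and 58.3%, 59.9% and 65.1% in naive control, dKO and dCD. Of 15 formative factors there were 5, the de novo methyltransferase gene Dnmt3b, the growth factor gene Fgf5, Grhl2, which opens epithelial enhancers, and the neighbours Zic2 and Zic5. At Dnmt3b the naive values were 72.9%, 72.6% and 70.5%, and at Fgf5 54.8% (49.4 to 60.04), 62.01% and 67.5% (62.1 to 72.5). The Grhl2 window had 64.96%, 60.9% and 71.7%, and the window shared by Zic2 and Zic5 66.05%, 64.4% and 68.1%.

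Of 36 DNA replication genes, 9 lay in the windows. At Lig1, the ligase that joins Okazaki fragments, direction was 72.6% in EpiLCs and 73.2%, 77.7% and 81.1% in naive libraries. At Prim2, in the 1200 kb run of chromosome 1, it was 67.6% and 71.95%, 71.6% and 78.4%. At Pcna, the sliding clamp, it was 61.7% and 68.6%, 65.5% and 64.3%. The others were Orc1 and Orc3 of the origin recognition complex, Gins3 and Gins4 of the replicative helicase, Gmnn, the inhibitor of licensing, and Cdc7. Their naive control values ranged from 46.0% at Cdc7 to 67.7% at Orc3. Of 13 H3K4 methyltransferase complex genes there were 2, Paxip1 (72.7%, 70.6% and 76.5% in the naive libraries) and Dpy30 (64.6%, 65.7% and 75.1%).

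Of 26 genes of common fragile sites only Tmem132c was inside, with 63.2%, 64.8% and 69.0% in naive cells. Of a list of 52 long genes, mostly of synapses and neural adhesion, there were 6, namely Fstl5, Cadps, Robo1, Sorcs3, Sox5, which encodes a transcription factor, and Galntl6, which encodes a glycosyltransferase. Their naive control values ranged from 56.8% at Galntl6 to 71.5% at Fstl5, and Fstl5 had 82.0% in naive dCD. Among all protein-coding genes of 300 kb or more, 29.1% had their midpoint in a window, near the 31.3% of all protein-coding genes. The genes of these 2 lists had median lengths of 1168 and 904 kb.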

How the data were processed

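OK-seq was measured in 12 samples, 2 replicates in each of 6 conditions. The authors aligned reads to mm10 with Bowtie2 and deposited 1 file per condition, replicates summed, with Watson and Crick signal in reads per bp for 1 kb bins. FastQC, Trim Galore, Picard and the builds hg19 and mm10 are named in the submitters' processing notes, without versions. Every deposited signal value was a whole multiple of 0.001 and was multiplied by 1000 to give reads. Positions were read as bin ends, which left 0 reads in the 77726 kb of N-only sequence.

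Reads were summed in 200 kb autosomal windows with Python 3 scripts (numpy, pandas). Genes were the protein-coding genes of GENCODE M21 and promoters those of RefSeq (15687 of 20780 gene symbols matched). The T minus A part was fitted in each library, over each 1 kb bin relative to 10 neighbours per side without the nearest 2, and subtracted. The procedure was tested on simulated data. Depth was 3655095 to 13601460 reads per library. The members and lists were chosen with earlier results of these data known. Windows named were the 5 highest, 5 lowest, 5 with the lowest naive share, 3 on each side of each threshold and the 3 longest runs per direction, with up to 3 genes that overlap by 10 kb, and genes of the 6 lists. Exceptions are stated, and 1 window and some genes that these rules name are not reported here. With 1 pooled library per condition no test was made. H3K4me1, timing and expression were not used here.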

Additional observations from a re-analysis of the deposited data

How the results depend on the processing

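In each setting naive dCD was above dKO and dKO above the control, with dKO minus control between 1.41 and 1.83 percentage points and dCD minus control between 5.65 and 6.70 in the settings planned, and the longest run was 800 to 1200 kb. In what follows, the naive fork direction is given as percents for control, dKO and dCD, followed by the EpiLC fork direction in the library left out of the choice where it was recomputed. Windows of 100 kb gave 8157 windows with 66, 67.4 and 71.6 in naive cells, 62.8, 64.5 and 67.8 in EpiLCs, differences of 1.41 and 5.65, 72.1% of windows with at least 60% of reads on the strand of the forks in all 3 naive libraries, a limit kept in every setting, and a gene coverage of 45.5%. Windows of 400 kb gave 1326 windows, 64.2, 65.8 and 70.1, 61.3, 63 and 66, 77.1% and 40.3%. Shifted windows gave 66.9 in naive dKO and 62.2, 63.8 and 66.9 in EpiLCs. Thresholds of 65 and 35 gave 1443 windows, 69, 70.6 and 75.7, 65, 67.1 and 70.9, a dCD difference of 6.7, 96% in all 3, a gene coverage of 40.3% and 69.6% of genic bases transcribed with the forks. A minimum of 2000 reads gave 63.8 in EpiLC dKO and 67.2 in EpiLC dCD, and the mean of the 3 Crick percents 63.9 in EpiLC dKO. Without bins of very high counts the naive values were 65.1, 66.7 and 71. With the T minus A part off there were 2342 windows, with 61.8, 63.6 and 67.7, 60.7, 61.8 and 65.1, a dKO difference of 1.83, 60.4% in all 3 and 51% of genic bases transcribed with the forks, no longer above the share over all windows (51.4%). Leaving the control, dKO or dCD EpiLC library out of the choice gave naive values of 64.7, 66.4 and 70.6, of 64.8, 66.4 and 70.7 and of 65.8, 67.5 and 71.7, with 72.3%, 72.8% and 79.99% in all 3. Chosen after seeing the data, a choice in the control EpiLC library alone gave 65.6, 67.1 and 71.4, differences of 1.48 and 5.72, 76.8% in all 3 and 66.9% of genic bases. Also chosen after seeing the data were gene lengths of 200 kb and 500 kb or more, where forks moved with transcription in 92.6% and 92.7% of the windows in 5′ parts and in 36.2% and 28.2% in 3′ parts. The cause of these shifts was not tested. Larger windows and stricter thresholds leave fewer windows by construction.

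By replicate number, no paired analysis was possible because each file holds the summed replicates of a condition, and for the same reason no replicate was left out. A paired test of the states over the 3 genotypes was not made, since the EpiLC reads chose the windows. A window of a naive library held a median of 313 to 372 reads, so a single window's value has an interval of several percentage points, and only the 1 window named above lay on the other side of 50 in all 3 naive libraries.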

Other observations

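Windows with a strong direction in naive cells that missed the EpiLC threshold numbered 690, namely 323 rightward and 367 leftward windows that passed in all 3 naive libraries. Their median EpiLC Crick percent was 57.9 and 42.0, so most lay close to the threshold, and 4 and 3 of them had the EpiLC majority on the other strand. The windows farthest from the threshold were chosen after their values were seen. At chr2:135800001-136000000, wholly within Plcb4, a phospholipase C gene, the Crick percent was 48.3, 48.2 and 47.1 in EpiLC control, dKO and dCD and 67.8, 72.0 and 70.5 in the naive libraries. At chr6:53600001-53800000, over Creb5, a transcription factor gene, it was 49.0, 50.4 and 55.7 in EpiLCs and 33.1, 39.6 and 35.1 in naive cells. At chr15:37000001-37200000 it was 46.4, 48.0 and 42.9 in EpiLCs and 63.3, 64.4 and 68.9 in naive cells. A further window, on chromosome 12, rested on 365 naive reads, and its EpiLC libraries lay apart, at 62.6, 46.8 and 44.7, with 37.7, 37.6 and 33.3 in naive cells. The window on chromosome 15 is directly beside that of Grhl2, which was rightward in both states.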
